A study of Mus musculus with 18 samples.

Results

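The collagen gene family was read here as every gene whose symbol begins with Col and a digit, and 42 such genes were measured among the 18193 genes on the array. Each gene was represented by 1 probe set that maps to a single symbol, the brightest by its mean over all 18 arrays, and sets of the cross-hybridizing _x_at kind were avoided where a gene had another. The 42 genes comprised 11 fibrillar collagens, 6 basement membrane collagens of type IV, 9 fibril-associated collagens with interrupted triple helices (FACIT) and 16 others. They were covered by 82 probe sets, several for 27 genes and a single one for 15. RefSeq lists 44 mouse genes that fit the symbol rule, and Col28a1 and Col6a6 had no probe set that maps to 1 symbol.

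The values come from whole pieces of MC38 tumours, a mouse colon carcinoma line grown under the flank skin of C57BL/6-Ly5.1 mice aged 6 to 12 weeks. The MEKi/CD40 group (4 tumours) received the MEK inhibitor GDC-0623 at 30 mg/kg daily and an agonist anti-CD40 antibody, the MEKi group (5 tumours) received the inhibitor and a control IgG, the anti-CD40 group (4 tumours) received the vehicle MCT and the anti-CD40 antibody, and the control group (5 tumours) received vehicle and control IgG. Antibodies were given on treatment days 3, 5 and 7 and 1 day before sampling, and all tumours were taken on day 22 after inoculation. The cells of all groups were injected in a mixture of buffer and Matrigel, a basement membrane extract, of which the array measures no protein.

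Collagens are secreted proteins of 3 chains wound into a triple helix. Fibrillar collagens assemble into the tensile fibres of connective tissue, FACIT collagens sit on the surface of those fibres, type IV collagens form the sheet-like network under epithelia and around vessels, and the others build beaded filaments, short-chain networks or anchoring fibrils, or remain in the cell membrane. In solid tumours fibroblasts are the best known source of fibrillar collagens, and endothelial cells and pericytes add type IV collagen. Chains are hydroxylated and folded in the endoplasmic reticulum, trimmed after secretion and cross-linked by lysyl oxidases.

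All values are deposited log2 values after robust multichip averaging (RMA). A probe set was taken to be at the floor, with no usable signal, on an array where it read under 3 or lay no more than 0.3 from a value it shows on 6 or more arrays. By that rule 53.7 to 55.9% of all probe sets were at the floor on an array, and array medians ran from 2.73 to 2.96. Within groups the arrays correlated at 0.987 to 0.998 over all probe sets. Because a tumour piece mixes cell types, more cells of a type and more RNA per cell cannot be told apart in any of the differences that follow. The level of one gene was never set against that of another, since probe sets differ in brightness.

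Of the 42 collagen genes, 26 were above the floor on at least 1 array, 21 on all 18 arrays, and 16 were below 3 on every array. Among the fibrillar genes 8 of 11 were above the floor somewhere, among type IV genes 3 of 6, among FACIT genes 4 of 9 and among the others 11 of 16. The genes below 3 on every array were the fibrillar Col2a1, Col11a2 and Col24a1, the type IV Col4a3, Col4a4 and Col4a6, the FACIT Col9a1, Col9a2, Col19a1, Col20a1 and Col22a1, and Col6a5, Col10a1, Col17a1, Col25a1 and Col26a1. Over all 18193 genes, 36.1% were below the floor on every array, against 38.1% of the collagen genes.

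Collagen genes rose in tumours given the MEK inhibitor, with or without the antibody, most often in the fibrillar class and most strongly for Col1a1, Col12a1, Col11a1 and Col1a2. With MEKi/CD40 against control, 11 of the 42 genes were higher and 1 was lower at an adjusted p under 0.05 (limma, Benjamini-Hochberg over all probe sets), where 7.65% of all genes were called higher and 12% lower. With MEKi against control, 9 were higher and 2 lower, where 6.08% of all genes were called higher and 5.09% lower. With anti-CD40 against control no collagen gene was called by limma, none had an unadjusted p under 0.05, and 0% of all genes were called. In all, 16 genes were called in at least 1 of 6 comparisons, and 15 of these were above the floor on every array. The share of all genes called in at least 1 of the 6 was not counted, so the 16 have no background.

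By class, MEKi/CD40 tumours had 6 of 11 fibrillar genes higher than control, none of 6 type IV genes, 2 of 9 FACIT genes and 3 of 16 others, and 1 of the others lower. MEKi tumours had 5 fibrillar, 1 type IV, 2 FACIT and 1 other gene higher than control, and 1 FACIT and 1 other gene lower. The median log2 difference with MEKi/CD40 was 0.54 for fibrillar genes, 0.069 for type IV, 0 for FACIT and 0.38 for the others, against 0 over all genes. With MEKi the class medians were 0.38, 0, 0.002 and 0.006 in the same order, against 0 over all genes. These counts and medians describe the classes and no test of a class was made, and the classes with a median near 0 hold many genes at the floor.

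**Figure D1:**
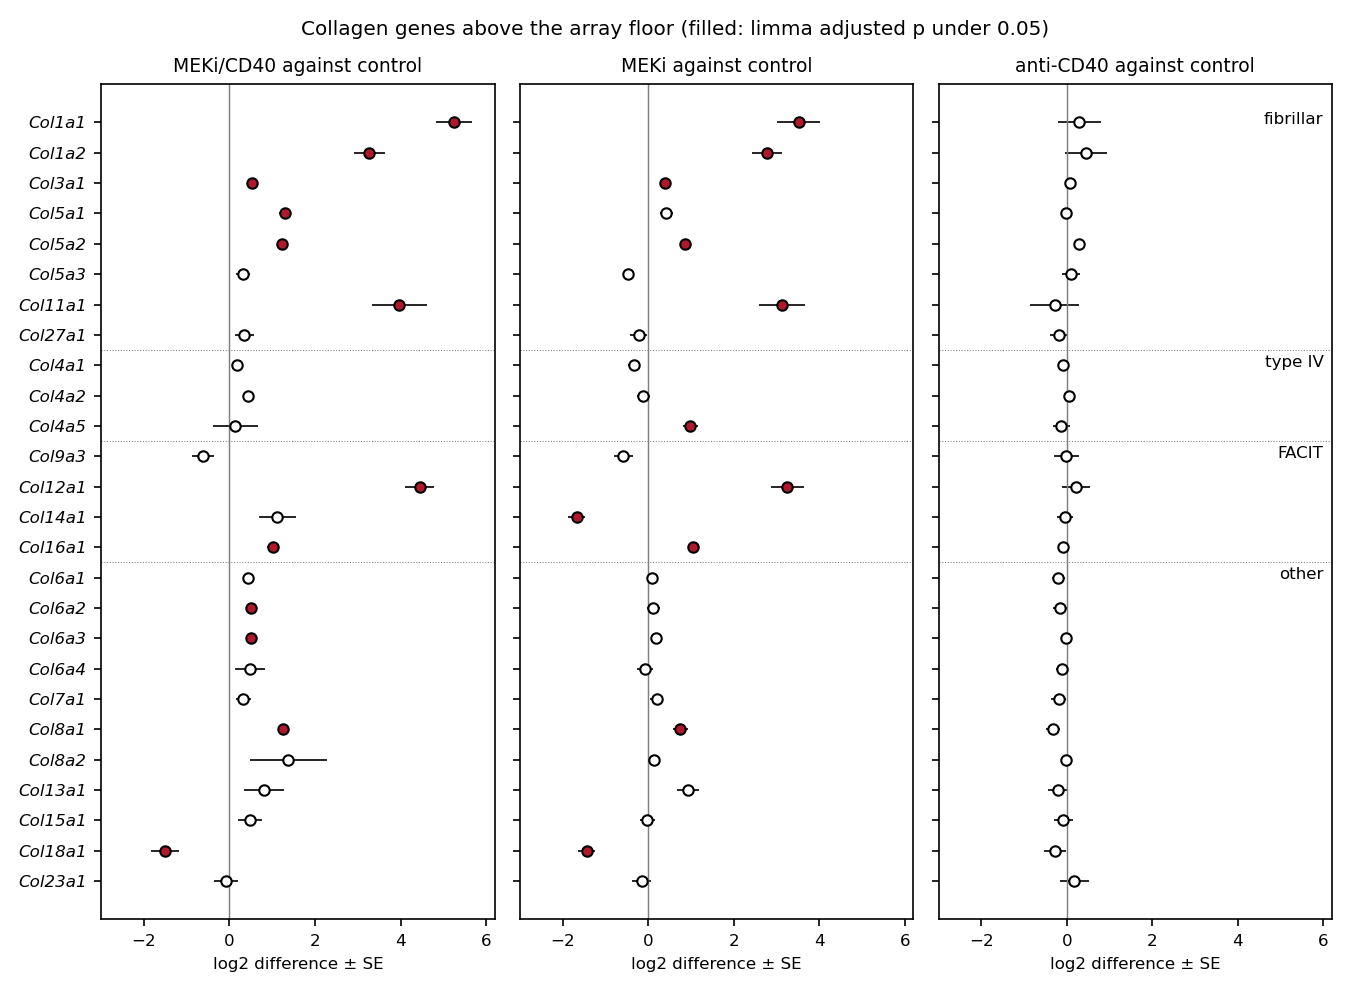
Log2 difference ± SE (horizontal axes) of the 26 collagen genes above the floor on at least 1 array (rows, by class), with MEKi/CD40, MEKi and anti-CD40 each against control; filled points have a limma adjusted p under 0.05. Filled points gather to the right in the fibrillar class of the left and middle panels, Col18a1 is left of 0 in both, and the right panel has no filled point.

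Type I collagen, the main protein of tendon, dermis and scar, consists of the chains encoded by Col1a1 and Col1a2. Col1a1 was at 14, 13.90, 13.68 and 13.56 in MEKi/CD40 tumours, at 13.00, 12.06, 12.72, 11.02 and 11.48 in MEKi tumours, at 8.06, 8.74, 8.77 and 9.75 in anti-CD40 tumours, and at 7.50, 9.67, 8.58, 8.05 and 8.90 in control tumours. Every tumour given the inhibitor lay above every tumour without it, and the MEKi/CD40 tumours all lay above the MEKi tumours. The log2 difference from control was 5.25 ± 0.42 (SE) with MEKi/CD40, 37.9-fold (adjusted p = 0.000857), and 3.52 ± 0.51 with MEKi, 11.4-fold (adjusted p = 0.0094). MEKi/CD40 exceeded MEKi by 1.73 ± 0.42, which was not called (adjusted p = 0.0803). That difference was called with the filter on dim probe sets and with all 18 arrays in 1 fit.

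Col1a2 was at 14.93, 15.20, 15.22 and 14.74 with MEKi/CD40, at 14.90, 14.47, 14.86, 14.22 and 14.20 with MEKi, at 11.13, 12, 12.69 and 12.94 with anti-CD40 and at 10.87, 12.60, 11.28, 11.77 and 12.24 in control. The groups with the inhibitor again did not overlap with those without it. Differences from control were 3.27 ± 0.36 with MEKi/CD40 (9.65-fold, adjusted p = 0.00196) and 2.78 ± 0.34 with MEKi (6.86-fold, adjusted p = 0.00562). Between MEKi/CD40 and MEKi the values overlapped.

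Col3a1, the sole chain gene of type III collagen, which accompanies type I in skin and vessel walls, was at 15.71, 15.69, 15.64 and 15.57 with MEKi/CD40, at 15.66, 15.52, 15.54, 15.33 and 15.45 with MEKi, at 15.30, 15.16, 15.04 and 15.23 with anti-CD40 and at 14.96, 15.16, 15.10, 15.16 and 15.20 in control. The rises of 0.54 ± 0.05 with MEKi/CD40 (adjusted p = 0.00151) and 0.38 ± 0.07 with MEKi (adjusted p = 0.0155) were small in size, and this probe set lay close to the top of the deposited range on all arrays. A second Col3a1 set, less bright, was at 13.94 to 14.33 with MEKi/CD40, 12.95 to 13.69 with MEKi, 12.14 to 13.00 with anti-CD40 and 11.96 to 12.49 in control. By that set the differences from control were 1.79 with MEKi/CD40 and 1.07 with MEKi, so the size of the Col3a1 change depends on the set.

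Type V and type XI collagens are minor fibrillar collagens that set the width of type I and type II fibres. Col11a1 was at 8.96, 8.74, 6.30 and 8.35 with MEKi/CD40, at 7.91, 7.61, 7.90, 5.49 and 7.29 with MEKi, at 3.23, 4.14, 2.76 and 5.16 with anti-CD40 and at 3.53, 3.94, 3.45, 5.22 and 4.42 in control. The lowest tumours with the inhibitor, MEKi 4 and MEKi/CD40 3, still lay above the highest tumours without it. It was higher than control by 3.98 ± 0.63 with MEKi/CD40 (15.7-fold, adjusted p = 0.00684) and by 3.13 ± 0.55 with MEKi (8.74-fold, adjusted p = 0.0153). The control values are close to the floor, where differences between arrays are compressed.

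Col5a1 was at 14.02, 13.79, 13.61 and 13.74 with MEKi/CD40, at 13.22, 12.84, 13.02, 12.54 and 12.91 with MEKi, at 12.46, 12.46, 12.65 and 12.32 with anti-CD40 and at 12.68, 12.58, 12.66, 12.38 and 12.12 in control. The 4 MEKi/CD40 tumours stood apart from all others, while MEKi and control tumours overlapped. The difference from control was 1.31 ± 0.14 with MEKi/CD40 (2.47-fold, adjusted p = 0.00173) and 0.42 ± 0.15 with MEKi, which was not called (adjusted p = 0.139). With the filter on dim probe sets the MEKi difference of Col5a1 was called. Col5a2, its partner chain, lay at 14.35 to 14.91 with MEKi/CD40, 14.10 to 14.48 with MEKi, 13.55 to 14.06 with anti-CD40 and 13.22 to 13.59 in control, and was higher than control by 1.23 ± 0.13 with MEKi/CD40 (adjusted p = 0.0019) and by 0.87 ± 0.09 with MEKi (adjusted p = 0.00427). Col5a3, the further type V chain, ran from 10.74 to 11.28 with MEKi/CD40, 10.04 to 10.47 with MEKi and 10.39 to 11.03 in control, and was called only in the comparison of MEKi/CD40 with MEKi, 1 of the 6 comparisons made. Its mean was lowest with MEKi, at 10.25, against 11.04 with MEKi/CD40, 10.82 with anti-CD40 and 10.72 in control. With MEKi against control Col5a3 was called under the filter on dim probe sets, with averaged probe sets and without control 5. Col27a1, a fibrillar collagen of cartilage and other tissues, was called in the main fits only with MEKi/CD40 against anti-CD40 (0.54 ± 0.11, adjusted p = 0.0237), and MEKi/CD40 and control tumours overlapped.

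**Figure D2:**
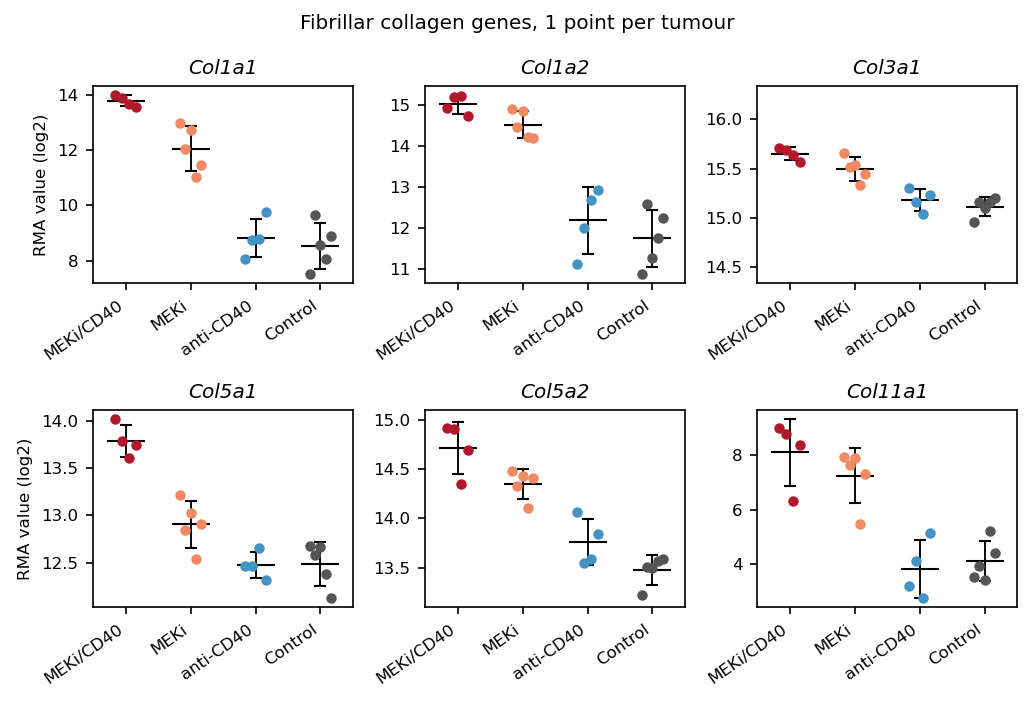
RMA values (log2, vertical axes) of 6 fibrillar collagen genes in each tumour, by group (horizontal axes); each point is a tumour, the short line its group mean and the bar 1 SD either way. Col1a1, Col1a2, Col3a1, Col5a2 and Col11a1 are higher in both groups with the inhibitor than in control, whereas Col5a1 at 13.61 or more separates only the MEKi/CD40 tumours.

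Promoter sequences show what stands directly before the start of a gene. The shares given here cover all collagen genes with a window, whether or not they changed. Of the 42 genes, 33 had a promoter in the RefSeq table (mouse build GRCm38.p6), in 36 windows, and the 250 bases before the start were searched on both strands for CCAAT, which nuclear factor Y is known to bind, and for GGGCGG, the GC box that Sp1 is known to bind. CCAAT was in 36.1% of the collagen windows and in 33.8% of all 32851 windows of that length, and GGGCGG was in 58.3% of the collagen windows and in 32.7% of all. TATAAA, on either strand, was in 13.9% of the collagen windows and 12.4% of all. These matches describe letters in a window and not bound sites. Shown 5′ to 3′ on the strand of the gene are the windows of Col1a2 (chr6:4505368-4505617, + strand), Col11a1 (chr3:114030290-114030539, + strand) and the FACIT gene Col16a1 (chr4:130047590-130047839, + strand), which rose and hold both motifs, and the upstream window of Col18a1 (chr10:77166531-77166780, - strand), which fell. Col1a1, Col12a1, Col14a1 and Col5a2 have no window in the table. Capitals mark CCAAT and GGGCGG in either orientation.
Col1a2: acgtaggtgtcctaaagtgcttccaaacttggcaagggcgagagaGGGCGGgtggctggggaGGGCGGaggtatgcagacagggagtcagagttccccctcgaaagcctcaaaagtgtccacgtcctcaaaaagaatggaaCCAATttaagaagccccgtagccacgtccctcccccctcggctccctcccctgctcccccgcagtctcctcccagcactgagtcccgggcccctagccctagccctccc
Col11a1: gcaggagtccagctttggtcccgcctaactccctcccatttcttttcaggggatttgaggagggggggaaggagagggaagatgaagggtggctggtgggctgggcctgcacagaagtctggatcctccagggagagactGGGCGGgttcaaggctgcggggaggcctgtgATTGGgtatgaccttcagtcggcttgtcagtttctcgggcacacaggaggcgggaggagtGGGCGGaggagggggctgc
Col16a1: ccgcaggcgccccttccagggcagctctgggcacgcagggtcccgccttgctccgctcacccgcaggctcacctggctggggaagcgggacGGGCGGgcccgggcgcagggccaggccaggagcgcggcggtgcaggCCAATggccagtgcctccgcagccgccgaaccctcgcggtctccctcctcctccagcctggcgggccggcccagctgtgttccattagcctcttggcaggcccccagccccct
Col18a1: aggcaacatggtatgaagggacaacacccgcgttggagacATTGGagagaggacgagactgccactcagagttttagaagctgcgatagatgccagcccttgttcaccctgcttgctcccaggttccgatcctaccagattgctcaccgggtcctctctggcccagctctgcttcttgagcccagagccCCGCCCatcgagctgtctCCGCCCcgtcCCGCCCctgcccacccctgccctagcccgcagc
The Col1a2, Col11a1 and Col16a1 windows each hold 1 CCAAT, and 2, 2 and 1 copies of GGGCGG. The Col18a1 window, of a gene that moved the other way, also holds 1 CCAAT, and 3 copies of GGGCGG, so the matches are found both in genes that rose and in a gene that fell. Other genes that rose with MEKi/CD40 differ from those shown: the Col3a1 and Col6a3 windows hold neither motif, and the Col5a1, Col8a1 and Col6a2 windows hold GGGCGG but no CCAAT. Col18a1 has a further window (chr10:77113706-77113955, - strand) with neither motif.

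FACIT collagens connect fibrils with the surrounding matrix. Col12a1, found on type I fibrils in dense connective tissue, was at 11.90, 12.15, 12.14 and 10.94 in MEKi/CD40 tumours, at 11.27, 10.81, 11.25, 9.73 and 9.87 in MEKi tumours, at 7.46, 7.12, 8.30 and 7.34 in anti-CD40 tumours and at 7.07, 7.35, 6.94, 8.14 and 7.18 in control tumours. The tumours with the inhibitor did not overlap with those without it. Differences from control were 4.45 ± 0.34 with MEKi/CD40 (21.8-fold, adjusted p = 0.000775) and 3.25 ± 0.39 with MEKi (9.51-fold, adjusted p = 0.00535). Col16a1, which is known from skin and cartilage matrix, was at 11.95, 11.97, 11.38 and 11.86 with MEKi/CD40, at 11.94, 11.83, 12.04, 11.61 and 11.67 with MEKi, at 10.81, 10.64, 10.54 and 10.74 with anti-CD40 and at 10.64, 10.72, 10.85, 10.61 and 11.01 in control. It rose by 1.02 ± 0.14 with MEKi/CD40 (adjusted p = 0.00429) and by 1.05 ± 0.11 with MEKi (adjusted p = 0.00408), and the MEKi/CD40 and MEKi tumours overlapped.

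Col14a1, which binds fibrils through partners such as decorin, followed another pattern. It was at 9.46, 10.96, 11.59 and 10.25 with MEKi/CD40, at 7.80, 8.15, 7.39, 7.63 and 7.90 with MEKi, at 9.29, 9.32, 9.50 and 9.52 with anti-CD40 and at 9.86, 9.82, 9.18, 9.22 and 9.17 in control. All 5 MEKi tumours lay below every other tumour, and 3 of the 4 MEKi/CD40 tumours lay above every other tumour. With MEKi it fell by 1.68 ± 0.20 on the log2 scale against control (adjusted p = 0.00535). With MEKi/CD40 the difference from control was 1.11 ± 0.43 and was not called (adjusted p = 0.151), and the difference from MEKi was 2.79 ± 0.42 (6.92-fold, adjusted p = 0.029). The difference from control was called with the filter on dim probe sets, all 18 arrays in 1 fit or averaged probe sets, and without MEKi/CD40 1. A second Col14a1 set, at 8.14, 9.52, 10.26 and 8.66 with MEKi/CD40, 5.94 to 6.35 with MEKi, 6.43 to 7.03 with anti-CD40 and 6.42 to 7.36 in control, gave 2.33 with MEKi/CD40 against control (adjusted p = 0.013) and -0.61 with MEKi against control (adjusted p = 0.0771), so the calls differ by set while the signs do not.

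Of the 6 type IV genes 3 were above the floor, and 1 of these, Col4a5, was called in the main fits, with MEKi against control. Col4a1 and Col4a2, whose chains form the network common to all basement membranes, start 21 bases apart on opposite strands of chromosome 8 in the RefSeq annotation. Col4a1 was at 13.18, 13.05, 12.84 and 12.94 with MEKi/CD40, at 12.78, 12.15, 12.43, 12.32 and 12.76 with MEKi, at 12.95, 12.57, 12.73 and 12.67 with anti-CD40 and at 12.72, 12.85, 13.10, 12.68 and 12.76 in control. Col4a2 was at 12.31, 11.96, 11.81 and 12.11 with MEKi/CD40, at 11.86, 11.23, 11.51, 11.14 and 11.77 with MEKi, at 11.91, 11.56, 11.61 and 11.55 with anti-CD40 and at 11.59, 11.56, 11.88, 11.42 and 11.63 in control. Against control the differences were 0.18 ± 0.10 and 0.43 ± 0.12 with MEKi/CD40 (adjusted p = 0.381 and 0.0585) and -0.33 ± 0.14 and -0.11 ± 0.16 with MEKi (adjusted p = 0.221 and 0.807), with overlapping values in each case. The Col4a2 difference of MEKi/CD40 from control was called under other normalisations (cyclic loess and quantile), with the filter on dim probe sets and with averaged probe sets. It was also called without control 3 or MEKi/CD40 3. Col4a1 with MEKi/CD40 lay above all MEKi tumours, a difference of 0.51 ± 0.15 that was not called (adjusted p = 0.129). That difference was called with the filter on dim probe sets and with all 18 arrays in 1 fit.

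Col4a5, which is known from kidney and other specialised basement membranes, was at 7.95, 9.54, 6.72 and 8.51 with MEKi/CD40, at 8.93, 9.32, 9.23, 8.85 and 8.81 with MEKi, at 8.21, 7.66, 7.94 and 7.85 with anti-CD40 and at 7.67, 8.09, 8.08, 7.81 and 8.56 in control. MEKi tumours all lay above control (0.99 ± 0.18, 1.98-fold, adjusted p = 0.0177), whereas the MEKi/CD40 tumours ran from the lowest to the highest of all 18 and did not differ from control beyond that spread (0.14 ± 0.53, adjusted p = 1).

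**Figure D3:**
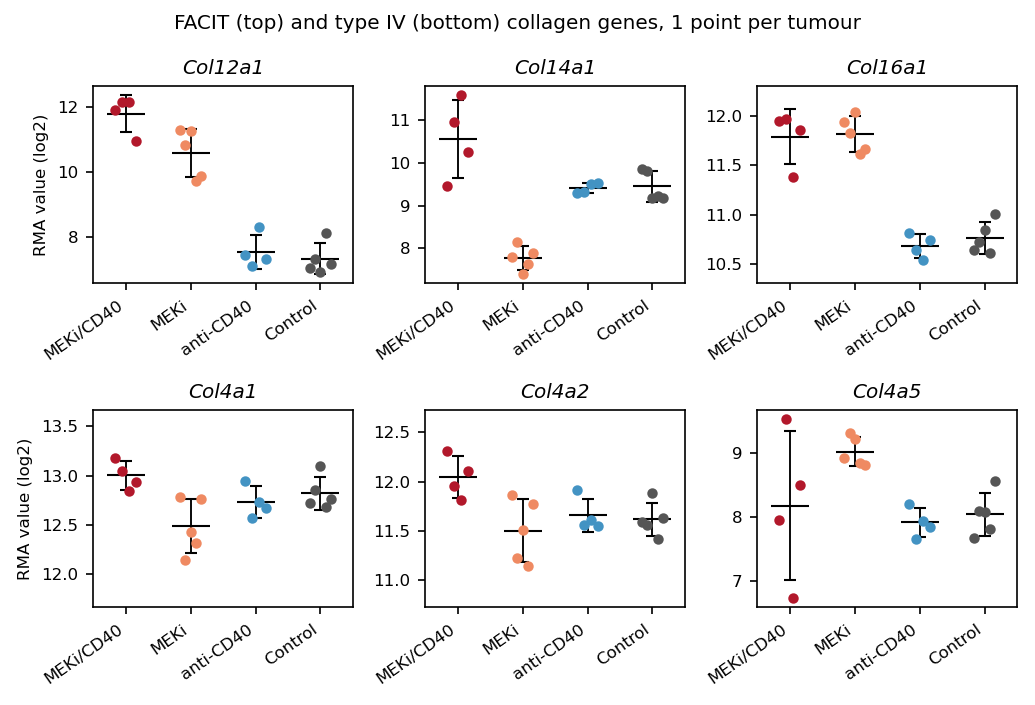
RMA values (log2, vertical axes) of 3 FACIT genes (top row) and 3 type IV genes (bottom row) in each tumour, by group (horizontal axes); each point is a tumour, the short line its group mean and the bar 1 SD either way. Col14a1 is lowest with MEKi (7.39 to 8.15) and highest with MEKi/CD40 (9.46 to 11.59), and Col4a5 has its widest spread with MEKi/CD40.

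Type VI collagen forms beaded filaments around cells and is made of the chains of Col6a1, Col6a2 and Col6a3. Col6a1 was at 14.65, 14.33, 14.08 and 14.46 in MEKi/CD40 tumours, at 14.26, 13.82, 14.08, 13.82 and 14.21 in MEKi tumours, at 13.29, 14.04, 13.74 and 13.90 in anti-CD40 tumours and at 13.85, 14.04, 14.06, 13.76 and 14.01 in control tumours. Col6a2 was at 14.23, 13.98, 13.81 and 14.07 with MEKi/CD40, at 13.90, 13.46, 13.63, 13.34 and 13.90 with MEKi, at 12.85, 13.63, 13.43 and 13.58 with anti-CD40 and at 13.51, 13.70, 13.62, 13.18 and 13.60 in control. Col6a3 was at 13.54, 13.34, 13.32 and 13.21 with MEKi/CD40, at 13.28, 12.88, 13.14, 12.82 and 13.05 with MEKi, at 12.77, 12.83, 12.79 and 12.92 with anti-CD40 and at 12.78, 12.78, 13.12, 12.72 and 12.86 in control. For each of the 3 chains the MEKi/CD40 tumours lay above all control tumours, by small differences, while MEKi tumours overlapped with control. Col6a2 and Col6a3 rose with MEKi/CD40, by 0.50 ± 0.13 (adjusted p = 0.0363) and 0.50 ± 0.10 (adjusted p = 0.0145), and Col6a1, at 0.44 ± 0.12, was not called (adjusted p = 0.0535). The Col6a1 difference was called under cyclic loess, with the filter on dim probe sets, with averaged probe sets and without MEKi/CD40 3. The Col6a2 call was lost when control 1, 3 or 5 or MEKi/CD40 1, 2 or 4 was left out, with an adjusted p of at most 0.0953.

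Col8a1, a short-chain collagen of vessel walls and of the corneal membrane, was at 12.73, 12.54, 12.19 and 12.71 with MEKi/CD40, at 12.39, 12.12, 12.30, 11.51 and 11.87 with MEKi, at 10.56, 10.84, 11.34 and 11.11 with anti-CD40 and at 11.09, 11.44, 11.41, 11.14 and 11.34 in control. All tumours with the inhibitor lay above all without it. The rises against control were 1.26 ± 0.13 with MEKi/CD40 (2.39-fold, adjusted p = 0.00174) and 0.75 ± 0.17 with MEKi (1.69-fold, adjusted p = 0.0347). The call with MEKi was lost whichever tumour was left out except MEKi 4 (highest adjusted p = 0.0811).

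Col18a1, a basement membrane proteoglycan and the source of the antiangiogenic fragment endostatin, was the 1 collagen gene called lower than control in both groups with the inhibitor in the main fits. It was at 9.93, 8.75, 8.87 and 8.72 with MEKi/CD40, at 9.31, 9, 9.29, 8.93 and 9.16 with MEKi, at 9.82, 10.64, 10.54 and 10.20 with anti-CD40 and at 11.20, 10.35, 10.70, 10.09 and 10.52 in control. MEKi/CD40 and MEKi tumours all lay below the control tumours, and MEKi/CD40 1 lay apart from the other MEKi/CD40 tumours, within the anti-CD40 range. It fell by 1.5 ± 0.32 on the log2 scale with MEKi/CD40 (adjusted p = 0.0204) and by 1.43 ± 0.20 with MEKi (adjusted p = 0.0079). The MEKi/CD40 call was lost when control 3, MEKi/CD40 2 or MEKi/CD40 4 was left out (highest adjusted p = 0.0599). Col15a1, the related collagen of vessel basement zones, stayed at or near the floor, at 2.89, 3.72, 3.87 and 2.97 with MEKi/CD40, at 2.74, 2.90, 2.75, 3.05 and 2.89 with MEKi, at 2.62, 2.63, 3.24 and 2.73 with anti-CD40 and at 3.54, 2.62, 2.63, 2.89 and 2.75 in control, and was above the floor on 5 arrays.

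**Figure D4:**
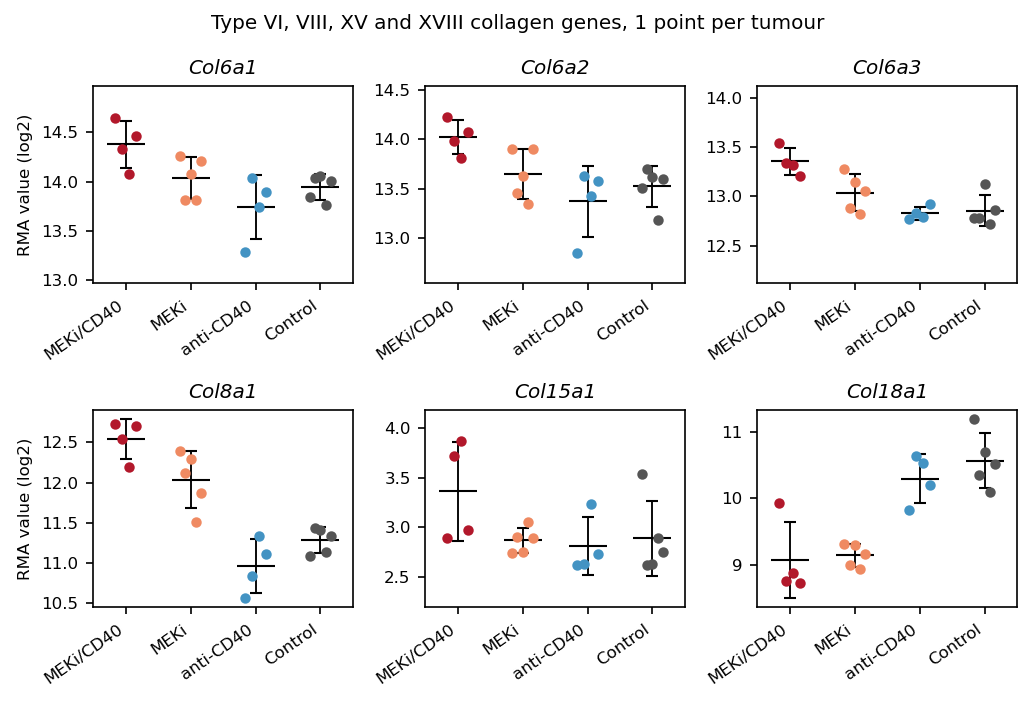
RMA values (log2, vertical axes) of 6 collagen genes of types VI, VIII, XV and XVIII in each tumour, by group (horizontal axes); each point is a tumour, the short line its group mean and the bar 1 SD either way. Col8a1 is higher and Col18a1 lower in both groups with the inhibitor than in control, and Col15a1 lies at or near the floor, below 4 on every array.

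Of the remaining genes above the floor somewhere, Col7a1, Col13a1, Col23a1, Col6a4, Col8a2 and Col9a3 were called in no comparison of the main fits. With all probe sets of a gene averaged, Col9a3 was called with MEKi/CD40 and with MEKi against control, and Col13a1 with MEKi. By its main set Col9a3 lay near the floor, at means of 2.845 with MEKi/CD40, 2.884 with MEKi and 3.464 in control. Col13a1, a transmembrane collagen of cell contacts chosen for mention after its values were seen, lay at 4.31 to 5.10 in MEKi tumours and at 3.05 to 4.28 in control tumours, without overlap, but was not called (0.93 ± 0.27, adjusted p = 0.071). Col7a1, the anchoring fibril collagen, lay at 9.99 to 10.62 with MEKi/CD40, 9.92 to 10.45 with MEKi, 9.59 to 10.19 with anti-CD40 and 9.72 to 10.25 in control, with overlap throughout.

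With the antibody alone no collagen gene differed from control beyond the spread of the tumours. The differences of the 42 genes between anti-CD40 and control ran from -0.32 (Col8a1) to 0.44 (Col1a2), with a median of -0.003 against 0 over all genes. The smallest adjusted p of limma over the 42 genes was 0.927, which does not show that the groups are alike.

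With the inhibitor present, adding the antibody went with higher values of a few genes. MEKi/CD40 against MEKi called 3 collagen genes higher (Col14a1, Col5a1 by 0.88 ± 0.14 with adjusted p = 0.0336, and Col5a3 by 0.79 ± 0.15 with adjusted p = 0.0441) and none lower by limma, where 0.978% of all genes were called higher and 1.85% lower. At an unadjusted limma p under 0.05, 14 were higher and 0 lower. The share of all genes at that unadjusted threshold was not counted, so the 14 cannot be set against it. Each of the 3 calls depended on the tumours included: Col14a1 was lost without any 1 of 6 tumours (MEKi 1 to 5 or MEKi/CD40 2), Col5a1 without any 1 of 7 (MEKi 2 to 5 or MEKi/CD40 1, 2 or 4) and Col5a3 without any 1 of 8 (all but MEKi/CD40 4), with highest adjusted p of 0.0782, 0.0958 and 0.113. Without the 2 MEKi/CD40 tumours highest in adipocyte markers (2 and 4) only Col5a3 of these was called, and none was called with the adipocyte mean as a covariate (adjusted p = 0.0545 to 0.0736). Over all 18193 genes, MEKi/CD40 against MEKi called 515 in the main fit and 15 to 397 with 1 tumour left out. It called 152 genes without those 2 tumours and 121 with the covariate.

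Whether the antibody acted differently with and without the inhibitor was asked in a 2-by-2 model over all 18 arrays, whose interaction term is what the log2 difference of MEKi/CD40 from control has over the MEKi and anti-CD40 differences added up. Of the collagen genes, Col14a1 (2.83 ± 0.46, adjusted p = 0.00843) and Col5a1 (0.90 ± 0.20, adjusted p = 0.0288) had a positive term and none a negative one by limma, where 0.973% of all genes were called positive and 1.5% negative. At an unadjusted limma p under 0.05 there were 11 positive and 0 negative terms, with no share of all genes counted at that threshold. Col14a1 kept the call whichever tumour was left out (highest adjusted p = 0.0209), and Col5a1 lost it in 7 of 18 such fits (highest adjusted p = 0.06), without control 2 or 3, anti-CD40 1, 2 or 4, MEKi 2 or MEKi/CD40 1. Without the 3 tumours highest in adipocyte markers Col14a1 was called and Col5a1 was not (adjusted p = 0.0678). Over all 18193 genes, 450 were called in the main fit, 404 without those 3 tumours and 221 to 580 with 1 tumour left out. For Col1a1 the term was 1.44 and for Col12a1 0.98, neither called (adjusted p = 0.328 and 0.476).

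MEKi/CD40 against anti-CD40 called 11 collagen genes higher and none lower, where 5.84% of all genes were called higher and 9.06% lower. At an unadjusted limma p under 0.05, 17 were higher and 1 lower, again with no share of all genes counted. The genes were Col1a1 (4.96 ± 0.35), Col11a1 (4.27 ± 0.78), Col12a1 (4.23 ± 0.38), Col1a2 (2.83 ± 0.41), Col8a1 (1.58 ± 0.20), Col5a1 (1.32 ± 0.11), Col16a1 (1.11 ± 0.15), Col5a2 (0.95 ± 0.17), Col27a1, Col6a3 (0.53 ± 0.07) and Col3a1 (0.47 ± 0.06). In the 8 fits that leave out 1 tumour, Col11a1 lost the call in 6 (highest adjusted p = 0.06, without MEKi/CD40 1, 2 or 4 or anti-CD40 1, 2 or 3), Col27a1 in 6 (without any anti-CD40 tumour or MEKi/CD40 1 or 4, highest adjusted p = 0.0773) and Col5a2 in 5 (highest adjusted p = 0.0611, without MEKi/CD40 1, 2 or 4 or anti-CD40 2 or 3). Without the 3 tumours highest in adipocyte markers (MEKi/CD40 2 and 4 and anti-CD40 3), which leaves 2 against 3 tumours, only Col12a1 was still called (4.71, adjusted p = 0.0176), and Col1a1 was at 4.99 (adjusted p = 0.0913), Col1a2 at 3.05 (adjusted p = 0.18) and Col5a1 at 1.40 (adjusted p = 0.0834). Over all 18193 genes that fit called 181, against 2711 in the main fit and 1397 to 3537 with 1 tumour left out.

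For 13 collagen genes, 15 further probe sets were above the floor on all 18 arrays and could be set beside the main set. The sign was the same in 14 of the 15 with MEKi/CD40 against control, the exception being Col4a5 (0.14 and -0.15), and in all 15 with MEKi against control. The call differed in 2 of 15 in each of these comparisons, for Col14a1 in both, for Col6a2 with MEKi/CD40 (adjusted p = 0.0787 by the other set) and for Col8a1 with MEKi (adjusted p = 0.0691 by 1 of 2 other sets). With MEKi/CD40 against MEKi neither of the 2 other Col5a1 sets was called (adjusted p = 0.066 and 0.0677), and 1 of them was not called for the interaction (adjusted p = 0.0512). With MEKi/CD40 against anti-CD40 the other sets called Col14a1 higher (adjusted p = 0.0254) and Col18a1 lower (adjusted p = 0.0425), where the main sets did not. With anti-CD40 against control no call differed and the sign was the same in 13 of 15.

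**Figure D5:**
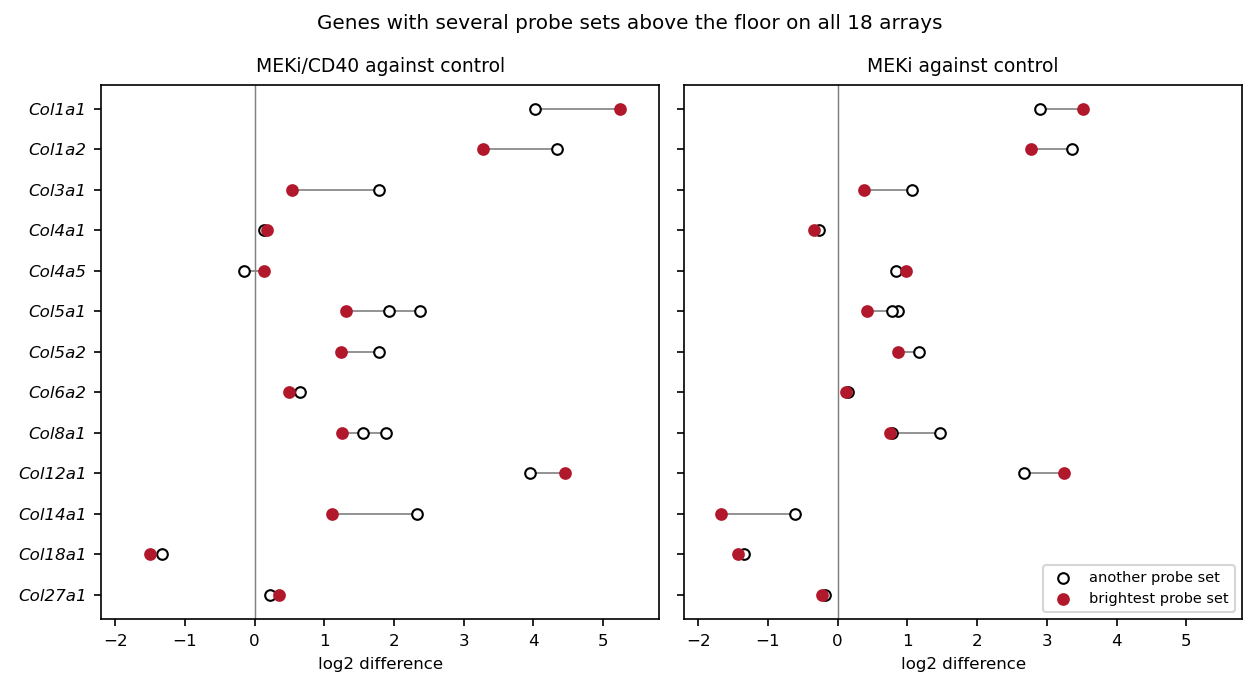
Log2 difference (horizontal axes) by the brightest probe set (filled) and by further probe sets (open) of the 13 collagen genes with several sets above the floor on all 18 arrays (rows), with MEKi/CD40 and MEKi each against control. The sets of a gene lie on the same side of 0 except for Col4a5 in the left panel, and in that panel they differ most in size for Col3a1, Col1a1, Col14a1, Col5a1 and Col1a2.

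Genes that make, process and bind collagen were counted from a list of 57, of which 52 were measured. With MEKi/CD40 against control 31 of 52 were higher and none lower by limma, with a median of 0.75, and with MEKi against control 19 were higher and none lower, with a median of 0.39, against 0 over all genes in both; of all genes, 7.65% were called higher with MEKi/CD40 and 6.08% with MEKi. In the endoplasmic reticulum group, 13 of 19 were higher with MEKi/CD40 and 10 with MEKi. These included P4ha2, a prolyl hydroxylase subunit (2.51 and 2.08), Plod1, a lysyl hydroxylase (1.12 and 1.11), Crtap, of the prolyl 3-hydroxylase complex (0.68 and 0.42), and Creb3l1, a transcription factor of collagen secretion (2.83 and 1.48), where the values in parentheses are log2 differences from control with MEKi/CD40 and with MEKi. Serpinh1, the collagen chaperone, was higher with MEKi/CD40 by 0.36 (adjusted p = 0.0167) and was at 0.21 with MEKi (adjusted p = 0.158).

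Of the propeptide processing genes 4 of 6 were higher with MEKi/CD40 and 1 with MEKi, which was Pcolce, an enhancer of procollagen cleavage (2.61 and 1.93). Pcolce2, its relative, and Tll1, a tolloid protease, were higher with MEKi/CD40 than in each of the other groups, by 4.13 and 1.48 against control, and both had a positive interaction term (4.14, adjusted p = 0.000106, and 1.38, adjusted p = 0.00655). Of the cross-linking enzymes, Lox and Loxl1 were higher in both groups (4.19 and 4.13 with MEKi/CD40, 3.54 and 2.43 with MEKi), and Loxl3 and Loxl4 were not called. Among receptors, Ddr2, a receptor tyrosine kinase for fibrillar collagen, was higher with MEKi/CD40 (0.77) and MEKi (0.56), and 6 of 8 and 7 of 8 receptors were not called. In the breakdown group, the uptake receptor Mrc2 was higher with MEKi/CD40 (3.17) and MEKi (2.27), and Mmp2 (1.43) and Mmp14 (0.74) were higher with MEKi/CD40.

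Of the fibril partners, 7 of 8 were higher with MEKi/CD40 and 4 of 8 with MEKi, where 7.65% and 6.08% of all genes were called higher. Lum, the proteoglycan lumican, was higher by 6.16 and 3.93, Dpt, dermatopontin, by 3.48 and 2.55, and Sparc, a collagen-binding glycoprotein, by 0.85 and 0.61. Tnxb, tenascin X, was higher by 6.00 with MEKi/CD40 (adjusted p = 0.000367) and was at 0.41 with MEKi (adjusted p = 0.629), with an interaction term of 5.60 (adjusted p = 0.000284). With anti-CD40 against control none of the 52 was called.

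Among markers of other cell types in the tumour, those of fibroblasts were called most often. The mean log2 value of 11 fibroblast markers, none of them a collagen and 3 of them also fibril partners (Dcn, Dpt and Lum), was 11.12 to 11.71 with MEKi/CD40, 9.26 to 10.01 with MEKi, 8.25 to 8.86 with anti-CD40 and 7.78 to 8.33 in control. With MEKi/CD40 against control 9 of 11 were higher and with MEKi 5 of 11, where 7.65% and 6.08% of all genes were called higher, and their part in the collagen differences was not tested. Of 6 pericyte and smooth muscle markers 1 was higher with MEKi/CD40, Acta2 (2.63), and of 6 endothelial markers 1, Tek (2.38). None of the adipocyte, skeletal muscle and epidermis markers was called with MEKi/CD40 against control. Of 5 cartilage markers 1 was lower, Sox9, at 8.53 to 9.13 with MEKi/CD40 and 9.97 to 10.58 in control. The cartilage markers Acan, Matn1 and Matn3 were below 3 on every array. With MEKi against control 1 of 6 pericyte and smooth muscle markers, 1 adipocyte marker and 1 epidermis marker were called higher. Of 6 haematopoietic markers 1 was lower with MEKi against control and 0 were called with MEKi/CD40 against control.

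Adipocyte markers were highest in single tumours: the mean of 9 measured markers was 3.56, 10.83, 4.76 and 6.68 in MEKi/CD40 tumours 1 to 4, 3.5 to 5.06 with MEKi, 3.18 to 5.64 with anti-CD40 and 3.14 to 3.88 in control. Single markers were also higher with MEKi: Fabp4 was at 10.29 to 11.19 with MEKi and 8.37 to 9.57 in control. Adipoq was at 2.52 to 8.18 and 2.33 to 3.91. With MEKi against control 8 of the 9 markers were not called. The mean of 10 skeletal muscle markers was 7.21 in MEKi/CD40 4 and at most 2.89 elsewhere. Without the 3 tumours with the highest adipocyte means (MEKi/CD40 2 and 4 and anti-CD40 3), 7 of the 12 collagen calls of MEKi/CD40 against control were made, and with the mean as a covariate 8 of 12 were made. Col1a1, Col1a2, Col3a1, Col5a1, Col5a2, Col8a1 and Col12a1 were called in both. Over all 18193 genes these fits called 1759 and 1744, against 3580 in the main fit. Of 9 colon epithelium markers 8 were below 3 on every array and the highest value of the list was 3.15, so the carcinoma cells could not be followed by these markers.

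The animal numbers in the sample titles fall into a low and a high range, and the sources used here do not say what the ranges mark. MEKi and control hold both ranges, with 2 low and 3 high tumours each, and all MEKi/CD40 and anti-CD40 tumours have low numbers. Within the low range all 12 genes called with MEKi/CD40 against control kept their direction, with 2 controls, and Col12a1 (4.57, adjusted p = 0.0357) and Col5a1 (1.16, adjusted p = 0.046) were called. With the range as a block 10 of the 12 were called, without Col18a1 (-1.71, adjusted p = 0.0643) and Col6a2 (0.42, adjusted p = 0.22). For MEKi against control, all 11 genes kept their direction in each range and none was called within a range (smallest adjusted p = 0.165 in the low and 0.134 in the high), with Col1a1 at 3.94 and 3.23, Col12a1 at 3.83 and 2.86, Col14a1 at -1.86 and -1.55 and Col18a1 at -1.62 and -1.31 in the low and the high range; with the range as a block all 11 were called. The 3 genes called with MEKi/CD40 against MEKi kept their direction within the low range and were not called there or with the block (adjusted p = 0.248 to 0.298 with the block). Over all 18193 genes, MEKi/CD40 against control called 384 within the low range and 2084 with the block, against 3580 in the main fit. MEKi against control called 16 within the low range, 4 within the high range and 1587 with the block, against 2033. MEKi/CD40 against MEKi called 4 within the low range and 11 with the block, against 515.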

How the data were processed

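RNA of 18 tumour pieces, 1 from each animal, was hybridised to 18 Affymetrix whole-genome mouse arrays. The authors scanned the arrays and normalised them by RMA in Chipster, and deposited 1 log2 value per probe set and array with 2 decimals; no version is given in the sources used here. These log2 values run from 2.16 upwards, and 34.4% of them sit at that minimum, which RMA alone does not produce, so small values carry no order and differences of dim genes are understated. No further normalisation was applied.

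Of 45101 probe sets, 64 controls were left out and 45037 were tested. Through the platform annotation 34945 sets had 1 gene symbol, 932 had several and 9160 had none; only the first kind was named. Each comparison was fitted with limma 3.58.1 in R 4.3.3 (lmFit, eBayes) on the groups compared, as the study's methods describe, and the interaction on all 18 arrays, with Benjamini-Hochberg adjustment over all tested probe sets at 0.05. Every adjusted p in the text is from these limma fits, which were tested on simulated data first. The number of arrays limits the precision.

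Every collagen gene called in any comparison was to be named. The value of each array was to be given for 12 set genes (Col1a1, Col1a2, Col3a1, Col4a1, Col4a2, Col6a1, Col6a2, Col6a3, Col12a1, Col14a1, Col15a1 and Col18a1) and for up to 4 genes of each class with the largest change among those called in MEKi/CD40 against control, MEKi against control or the interaction, which came to 17 genes. The genes, lists and tests were chosen with earlier results of these data known. Alternatives were other normalisations, a filter, raised low values, all arrays in 1 fit, averaged probe sets, left-out arrays, blocks for replicate number and animal number range, and adipocyte markers as a covariate. Promoters came from RefSeq (GRCm38.p6).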

Additional observations from a re-analysis of the deposited data

Results flagged for a closer look

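In 104 checks of a group's values over the 26 collagen genes above the floor somewhere, 11 single tumours lay far from the rest of their group, where chance flags about 1 in 20 groups. Among genes that were called, these were Col11a1 at 5.49 in MEKi 4, Col18a1 at 9.93 in MEKi/CD40 1, Col5a2 at 13.22 in control 1 and Col5a3 at 11.44 in anti-CD40 1. Among the others they were Col4a2 at 11.91 and Col23a1 at 5.87, both in anti-CD40 1, and Col8a2 at 6.93 in MEKi/CD40 3, where the other 3 tumours of that group lay at 2.51 to 3.08. Those near the floor were Col6a4 at 3.07 in MEKi 1 and at 2.66 in anti-CD40 3, and Col9a3 at 2.34 in MEKi/CD40 4 and at 2.41 in MEKi 2.

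The effect of the antibody differed with and without the inhibitor for Col14a1 (interaction 2.83 on the log2 scale) and Col5a1 (0.90), by the limma interaction term. For Col14a1 the antibody went with a higher value in the presence of the inhibitor, where all 4 MEKi/CD40 tumours lay above all 5 MEKi tumours, and the anti-CD40 and control tumours overlapped.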

How the results depend on the processing

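No collagen gene called in a comparison changed direction under any alternative. The replicate numbers in the titles do not pair the animals: deviations of same-numbered tumours correlated at a median of -0.004 (-0.40 to 0.296, 25 pairs), against -0.004 for other pairs (-0.487 to 0.508, 96 pairs). With the replicate number as a block, 0 of 12 collagen calls were left with MEKi/CD40 against control, 0 of 11 with MEKi against control and 0 of 3 with MEKi/CD40 against MEKi, 4 instead of 11 were made with MEKi/CD40 against anti-CD40, and the interaction had 2. Over all 18193 genes the same block gave 66 calls with MEKi/CD40 against control and 0 with MEKi against control or MEKi/CD40 against MEKi. The main fits gave 3580, 2033 and 515 in these comparisons. MEKi/CD40 against anti-CD40 went from 2711 calls over all genes to 652, and the interaction from 450 to 252.

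The filter on dim probe sets gave 6 collagen calls with MEKi/CD40 against MEKi and 4 for the interaction, and all 18 arrays in 1 fit gave 6 with MEKi/CD40 against MEKi. Over all genes the filter called 1492 of 10119 with MEKi/CD40 against MEKi and 799 of 10238 for the interaction. With all 18 arrays in 1 fit 2024 of 18193 were called with MEKi/CD40 against MEKi. The main fits called 515 of 18193 for that comparison and 450 for the interaction. Within the low animal number range 2 collagen calls were made with MEKi/CD40 against control, 0 with MEKi against control and 0 with MEKi/CD40 against MEKi. Of all 18193 genes 384, 16 and 4 were called in these fits. Within the high range 0 collagen calls were made with MEKi against control, and with the range as a block 0 with MEKi/CD40 against MEKi. Of all genes 4 and 11 were called there. Without the 3 tumours of highest adipocyte mean the collagen counts were 7 with MEKi/CD40 against control, 1 with MEKi/CD40 against MEKi, 1 with MEKi/CD40 against anti-CD40 and 1 for the interaction. Of all 18193 genes 1759, 152, 181 and 404 were called in the same order. With the adipocyte mean as a covariate 0 collagen calls were made with MEKi/CD40 against MEKi, where 121 of all genes were called. The fits within a range or without tumours hold fewer samples; the cause of the other changes was not tested.

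Leaving out 1 tumour at a time gave 10 to 14 collagen calls with MEKi/CD40 against control, 10 to 11 with MEKi, 0 with anti-CD40, 0 to 2 with MEKi/CD40 against MEKi, 8 to 11 with MEKi/CD40 against anti-CD40 and 1 to 3 for the interaction. Over all 18193 genes these fits gave 2501 to 4236, 985 to 1963 and 0 to 2 calls against control. They gave 15 to 397 with MEKi/CD40 against MEKi, 1397 to 3537 against anti-CD40 and 221 to 580 for the interaction. The other alternatives left each count of collagen calls within 1.5 times. The 16 genes below 3 on every array could not show a usable difference. Col22a1, which is among them, was still called with MEKi/CD40 against control after quantile normalization. Its deposited value is 2.26 in every tumour, so that call rests on no measured difference.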
